A study of Mus musculus with 4 samples.

Results

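The 8 genes described here encode the Notch ligands of the mouse and regulators of what ligand and receptor do at the membrane. They are the Delta genes Dll1, Dll3 and Dll4, the Jagged genes Jag1 and Jag2, the ubiquitin ligase gene Mib1, and the Numb genes Numb and Numbl. They were chosen by gene symbol from the 21831 genes analysed, with no rule on their values but with earlier results of these data known. Each of the 8 had 1 line and a quantification status of OK in all 4 libraries. Levels are in FPKM, a count of sequenced fragments divided by exon length and by library size, and all 8 had a mean of at least 1 FPKM over the 4 libraries, as had 12177 of the genes analysed (called expressed below).

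The cells came from neonatal retinas of FVB/N mice carrying the pHes1-EGFP transgene, in which the promoter of Hes1, a gene activated by Notch, drives a destabilized EGFP. At postnatal day 1 (P1) and at postnatal day 4 (P4), dissociated retinal cells were separated on a cell sorter into EGFP-positive cells (pHes1_EPC) and EGFP-negative cells (pHes1_ENC). One RNA-seq library was made from total RNA of each fraction at each age, so there were 4 libraries and 1 library per group, and all 4 came from transgenic animals that received no treatment. The transgene reports activity of 1 promoter, so EPC and ENC are reporter gates and not cell types, and the number of animals pooled in a library was not given in the sources used here. The comparison between the fractions asks which genes differ between cells with and without activity of the Hes1 promoter, and the ages ask whether that changes in the days when late progenitors give rise to rods and Müller glia.

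In Notch signaling, a ligand on one cell binds a receptor on its neighbor. The ligand must be ubiquitinated and endocytosed in the sending cell to pull the receptor open, after which the receptor is cleaved and its intracellular domain activates genes such as Hes1 and Hes5 with the DNA-binding protein Rbpj. In the developing retina, cells that enter neurogenesis express Delta ligands and signal to neighboring progenitors, which remain undifferentiated while Notch is active. Mib1 is the ligase that ubiquitinates the ligands. Numb and its homolog Numbl are endocytic adaptors that act against Notch in the cell that holds them.

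With 1 library per group no replicate error could be estimated and no test was made. Each FPKM is given with the 95% interval that Cufflinks wrote beside it, which comes from 1 library and does not cover the variation between animals or sorts. A difference is log2(FPKM + 1) in EPC minus that in ENC, which understates the change of genes with low FPKM, and a ratio is one of FPKM with no pseudocount. The range after a ratio is what the intervals of both libraries allow. Ratios of P4 to P1 within a fraction are of the FPKM as deposited and were not recomputed after rescaling the libraries. A gene was called higher or lower in EPC where the difference was above 1 or below -1. The interval half-widths of the 8 genes were 3.32% to 32.1% of the FPKM, widest for Jag1 in P1 EPC. The deposited tables hold no read counts, and library depth is unknown. For 5 of the 32 values, Dll1 in 3 libraries and Dll3 in 2, the FPKM lay above its own interval, by at most 1.04 times the upper bound, and 11.3% to 13.3% of genes per library lay outside theirs.

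The libraries differed in what else they held, and these values apply to every result below. The FPKM of the genes analysed summed to 277426 in P1 ENC, 294772 in P1 EPC, 303865 in P4 ENC and 372003 in P4 EPC. Müller glia markers summed to 508, 1580, 327 and 2992 FPKM in that order, S phase markers to 276, 1248, 118 and 509, and rod markers to 488, 36.5, 3940 and 782. Erythrocyte markers were at 137 and 334 FPKM in the ENC libraries against 0.595 and 5.83 in the EPC libraries. Pigment epithelium markers were at 69.1 FPKM in P4 EPC and at most 4.63 elsewhere. Of these lists, 8 of 11 expressed Müller glia markers were called higher in EPC at P1 and 10 of 11 at P4. Clu of that list was called lower at P1 (-1.12). S phase markers were called higher in 12 of 12 genes at both ages, and rod markers lower in 8 of 10 and 10 of 10. All 12 retinal progenitor markers were expressed, with sums of 1581, 2720, 1248 and 1963 FPKM, 7 called higher and 1 lower at P1 and 9 higher and 1 lower at P4. Their P4 difference minus the P1 difference was above 1 in 8 of 12, beside 12.0% of all expressed genes. Over all expressed genes, 10.7% were called higher and 11.3% lower in EPC at P1, and 16.9% and 9.41% at P4. The part that such differences in makeup play in the results was not tested, and in bulk RNA fewer cells of a type and less RNA per cell cannot be told apart.

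At P1 no member of the group was called higher in EPC and 4 of 8 were called lower, namely Dll3, Dll4, Jag2 and Numbl. Among the 12177 expressed genes 10.7% were called higher and 11.3% lower at that age (6.1% and 6.79% of all genes analysed). At P4 Dll1 alone was called higher, and 3 of 8, Jag1, Jag2 and Mib1, were called lower, where 16.9% and 9.41% of expressed genes (9.85% and 5.42% of all genes analysed) were called higher and lower. The median difference of the 8 genes was -1.15 at P1 and -0.44 at P4, beside medians of 0.03 and 0.16 over all expressed genes. The P4 median of all genes depended on scaling, as it was -0.09 when the libraries were rescaled to the same total. Of the genes called at P4, 64.5% were higher in EPC as deposited and 47.9% after that rescaling.

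**Figure D1:**
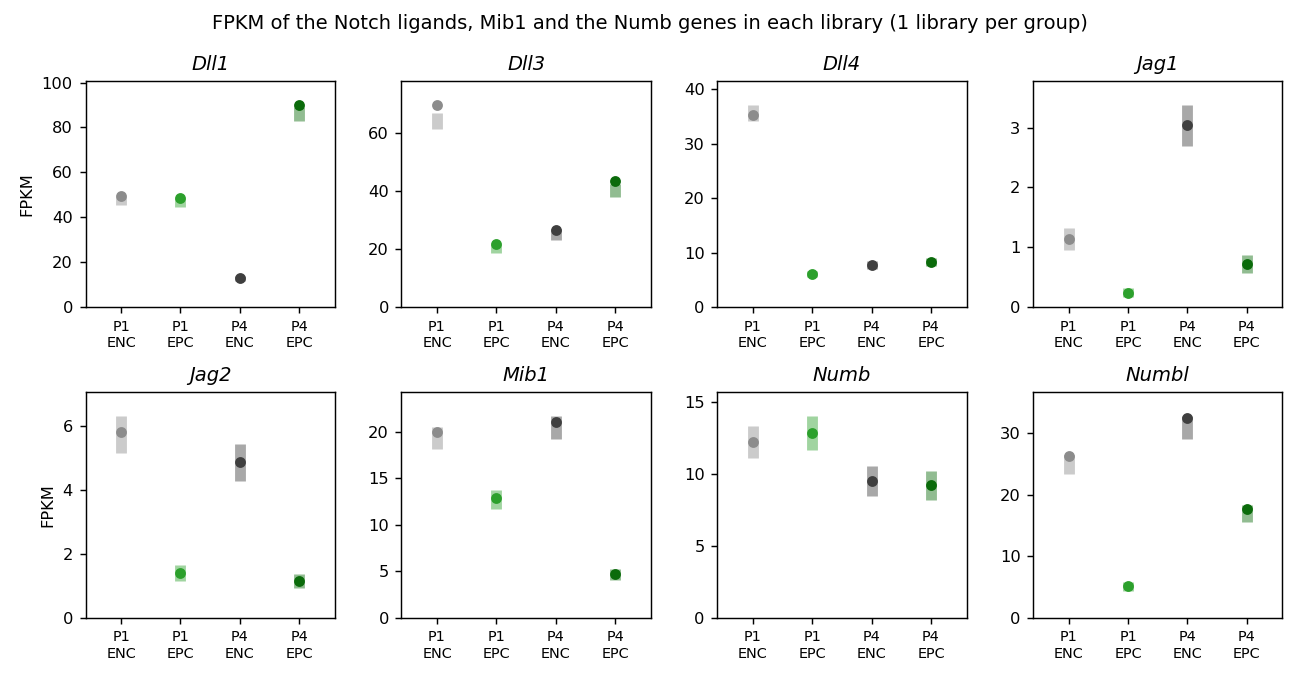
FPKM (y axis, linear, from 0) of each of the 8 genes in the 4 libraries (x axis), with points for the FPKM and bars for the Cufflinks 95% interval, which does not cover the variation between animals or sorts. Dll1 is highest in P4 EPC at 89.9 FPKM, Dll4 in P1 ENC at 35.3 FPKM, and Jag1, Jag2 and Mib1 are lower in EPC than in ENC at both ages.

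The 3 Delta genes carried most of the ligand transcripts, and their order between the fractions differed with age. Their start regions are shown first because these are the ligands whose distribution changed most. The 250 bases before the annotated start are given 5′ to 3′ on the gene's strand, from the RefSeq promoter table (GRCm38.p6), with capitals for matches to the E-box CANNTG, the motif of basic helix-loop-helix factors. They lie at chr17:15375824-15376073 (minus strand) for Dll1, chr7:28301786-28302035 (minus strand) for Dll3 and chr2:119325534-119325783 (plus strand) for Dll4. Each window matched 1 place exactly in NCBI37/mm9, and there its first transcribed base fell on the first base of the gene's line in the deposited tables.
Dll1: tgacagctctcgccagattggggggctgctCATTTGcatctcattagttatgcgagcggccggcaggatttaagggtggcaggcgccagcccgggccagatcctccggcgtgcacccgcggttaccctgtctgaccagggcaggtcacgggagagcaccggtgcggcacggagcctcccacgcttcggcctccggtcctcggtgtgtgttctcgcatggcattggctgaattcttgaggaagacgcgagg
Dll3: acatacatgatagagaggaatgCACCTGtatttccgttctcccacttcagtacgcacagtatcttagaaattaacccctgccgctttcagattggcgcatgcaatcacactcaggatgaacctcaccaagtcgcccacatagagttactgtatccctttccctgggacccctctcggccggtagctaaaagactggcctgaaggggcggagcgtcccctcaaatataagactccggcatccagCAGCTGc
Dll4: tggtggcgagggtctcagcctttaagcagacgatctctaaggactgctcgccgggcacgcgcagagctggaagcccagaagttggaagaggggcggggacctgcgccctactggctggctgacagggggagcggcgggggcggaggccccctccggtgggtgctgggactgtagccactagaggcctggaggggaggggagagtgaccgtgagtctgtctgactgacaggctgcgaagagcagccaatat

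The Dll1 window held 1 E-box, at -220 to -215 counted from the start. The Dll3 window held 2, at -228 to -223 and at -7 to -2, the second of them with the letters CAGCTG, and the Dll4 window held 0. Another RefSeq start of Dll1, 1109 bases upstream, had 3 in its window, 1 of them with those letters too, as had the 1 E-box of Jag1. Among 32817 windows of the same length in the table, 66.2% held at least 1 E-box, 31.8% at least 2 and 12.2% at least 3, and 13.0% held the form with GC in its center. Both read the same on either strand, and the second form is counted in the first.

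TGGGAA, the core letters of Rbpj sites, was searched on both strands and was in none of the windows of the 7 members that the table lists, while 21.6% of all windows held it. A match describes the letters in a window and not a bound site.

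Dll1 is a ligand of early differentiating cells and neurogenic progenitors (NCBI37/mm9 chr17:15504318-15512787, minus strand, 11 exons in the longest coding transcript of the GENCODE annotation, as counted for each gene below). Its level was 49.5 FPKM (interval 45.4 to 49.2) in P1 ENC, 48.7 (44.7 to 48.5) in P1 EPC, 13.1 (11.7 to 13.7) in P4 ENC and 89.9 (83.0 to 88.9) in P4 EPC. The intervals of the P1 fractions overlapped, while those of the P4 fractions were far apart, with the highest value in EPC and the lowest in ENC. The difference was -0.02 at P1 and 2.69 at P4, the latter a ratio of 6.87 (6.04 to 7.60). From P1 to P4 the level in ENC was 3.79 times lower and that in EPC was 1.84 times higher (1.71 to 1.99), as deposited. The fractions thus moved apart from a shared level, but the size of each change was not checked under another scaling. The FPKM of the genes analysed summed to 294772 in P1 EPC and 372003 in P4 EPC.

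Dll3 is a divergent Delta protein that is known to act within the cell on other Notch proteins more than as an activating ligand (chr7:29078574-29086804, minus strand, 9 exons). It was at 69.7 FPKM (61.5 to 66.9) in P1 ENC, 21.6 (18.7 to 21.9) in P1 EPC, 26.6 (23.0 to 26.8) in P4 ENC and 43.6 (38.1 to 42.5) in P4 EPC. The direction between the fractions was opposite at the 2 ages, with intervals apart at each. At P1 Dll3 was 3.22 times higher in ENC (2.81 to 3.58), a difference of -1.64. At P4 it was 1.64 times higher in EPC (1.42 to 1.85), a difference of 0.69 that was not past the threshold. From P1 to P4 it was at 0.382 of its level in ENC and 2.02 times its level in EPC.

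Dll4 is the ligand best known from growing vessels, and in the retina it is also expressed by cells that are leaving the cycle (chr2:119151520-119161402, plus strand, 11 exons). It was at 35.3 FPKM (34.1 to 37.1) in P1 ENC, 6.08 (5.50 to 6.67) in P1 EPC, 7.75 (7.07 to 8.43) in P4 ENC and 8.28 (7.59 to 8.98) in P4 EPC. P1 ENC stood alone at a high level, and the P4 fractions overlapped. The P1 difference was -2.36, or 5.80 times higher in ENC (5.12 to 6.74), the largest of the 8 genes at that age by size. At P4 the ratio was 1.07 (0.900 to 1.27), and the difference of 0.09 became -0.17 when the libraries were rescaled to the same total. The level in ENC was 4.56 times lower at P4 than at P1.

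The sum of the amacrine and horizontal cell markers was, like Dll4, highest in P1 ENC. It was 136, 36.4, 31.6 and 28.3 FPKM in P1 ENC, P1 EPC, P4 ENC and P4 EPC. Of the 8 expressed genes 7 were called lower in EPC at P1 and 4 at P4, beside 11.3% and 9.41% of all expressed genes. Ptf1a, a factor that specifies these cells, was at 25.4, 0.788, 4.33 and 1.00 FPKM. Prox1 of the same list was highest in P1 EPC, at 17.6, 23.2, 10.8 and 18.1 FPKM. Gad2 was higher in EPC at P4, with differences of -1.90 and 0.77. Ganglion cell markers summed to 40.6, 21.8, 9.84 and 4.50 FPKM. The part of such cells in the levels of Dll4, and in the lower Dll1 and Dll3 of P4 ENC, was not tested. Because Dll4 marks vessels, the endothelial markers stand beside it too. Pecam1, Cdh5, Tek, Tie1 and Emcn, which define endothelial cells, were at most 0.142 FPKM in every library. Of the 11 endothelial and pericyte markers, 9 were at most 1.68 FPKM throughout. The other two were Kdr, at 46.9, 209, 12.0 and 189 FPKM and so higher in EPC, and Cldn5, a tight junction gene, at 16.3, 3.49, 2.59 and 4.06 FPKM with differences of -1.95 and 0.50. Cldn5 was thus also highest in P1 ENC. The reads carry no strand, and 414 bases of the predicted gene Gm14207 overlap the first bases of Dll4. Gm14207 was at 13.3, 1.80, 6.98 and 4.62 FPKM, and reads in the shared bases cannot be told apart.

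Taken per gene, the P4 difference minus the P1 difference was 2.71 for Dll1, 2.44 for Dll4 and 2.34 for Dll3. Such a value was above 2 in 2.3% of expressed genes and above 1 in 12.0%, with a median of 0.18. Between 98.8% and 99.4% of expressed genes had a smaller value than each of the 3 Delta genes. The levels behind these values differed: Dll1 went from equal to higher in EPC, Dll3 from lower to somewhat higher, and Dll4 from lower to equal.

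**Figure D2:**
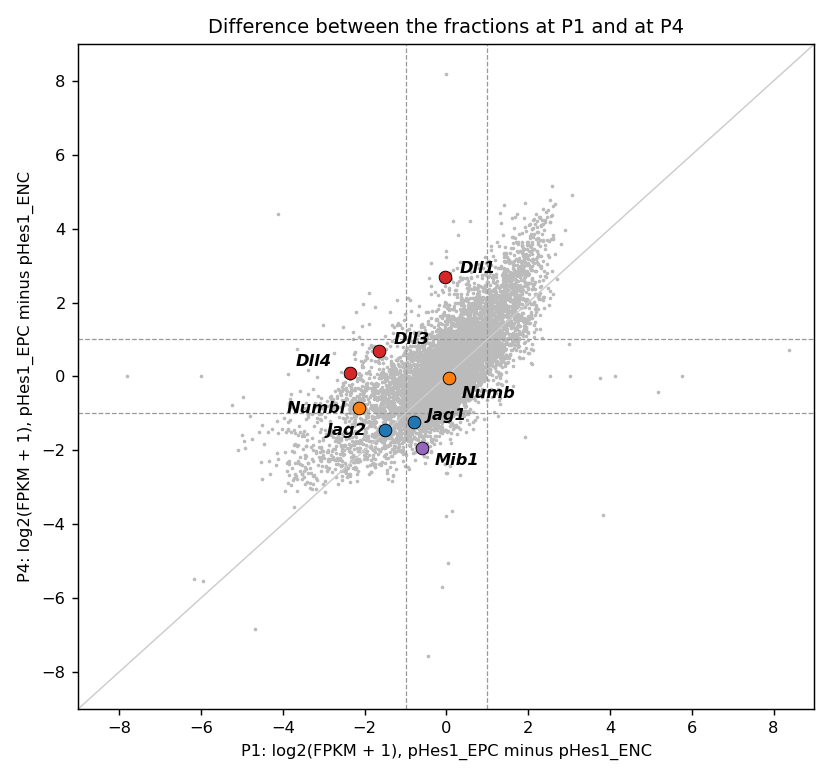
Difference in log2(FPKM + 1), EPC minus ENC, at P1 (x axis) and at P4 (y axis) for expressed genes (grey) and the 8 genes (coloured by role), with dashed lines at 1 and -1 and a diagonal where both ages are equal. The Delta genes lie above the diagonal, with Dll1 at -0.02 and 2.69, and Mib1 lies below it at -0.59 and -1.95.

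The Jagged genes were low, and lower in EPC at both ages. Jag1, a ligand of vessels, the ear and the ciliary margin among other tissues (chr2:136907187-136942256, minus strand, 26 exons), was at 1.13 FPKM (0.947 to 1.32) in P1 ENC and 0.238 (0.160 to 0.312) in P1 EPC. At P4 it was at 3.04 FPKM (2.70 to 3.38) in ENC and 0.720 (0.575 to 0.862) in EPC. No intervals overlapped, and P4 ENC was highest. The ENC level was 4.77 times that of EPC at P1 (3.03 to 8.26) and 4.22 times at P4 (3.13 to 5.87). On the log2(FPKM + 1) scale these were -0.79 and -1.23, so the P1 difference was past the threshold only without the pseudocount of 1 (-2.25 with none). From P1 to P4 Jag1 was 2.68 times higher in ENC (2.05 to 3.56) and 3.03 times higher in EPC (1.84 to 5.40), and it was the only one of the 5 ligand genes that was higher at P4 in both fractions. Lens and ciliary margin markers (6 genes) summed to at most 2.49 FPKM in any library.

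Jag2, the other Jagged ligand (chr12:114146801-114167706, minus strand, 26 exons), was at 5.81 FPKM (5.16 to 6.32) in P1 ENC, 1.40 (1.15 to 1.64) in P1 EPC, 4.86 (4.27 to 5.43) in P4 ENC and 1.15 (0.921 to 1.38) in P4 EPC. Within each fraction the ages overlapped, and between the fractions no intervals did. ENC was 4.16 times higher at P1 (3.15 to 5.51) and 4.23 times at P4 (3.10 to 5.89), with differences of -1.51 and -1.45. With the pseudocount of 1 and the values as deposited, Jag2 was the only one of the 8 genes called in the same direction at both ages. Jag2 was 5.12 and 5.87 times the level of Jag1 in ENC and EPC at P1, and 1.60 times in both fractions at P4.

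Summed over the 5 ligands, transcripts were at 161 FPKM in P1 ENC, 78.1 in P1 EPC, 55.3 in P4 ENC and 144 in P4 EPC. The sum was 2.07 times higher in ENC at P1 and 2.60 times higher in EPC at P4. The makeup of the sum followed the fraction more than the age for Dll1, which was 30.7% and 23.6% of it in the ENC libraries and 62.4% and 62.6% in the EPC libraries. Dll3 held 43.2% and 48.1% in ENC, against 27.7% and 30.4% in EPC. Dll4 was 21.9% and 14.0% in ENC and 7.79% and 5.77% in EPC. The Jagged genes were 14.3% of the sum in P4 ENC and at most 4.30% elsewhere, and the Delta sum was 6.00 times the Jagged sum in P4 ENC and 75.8 times in P4 EPC.

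**Figure D3:**
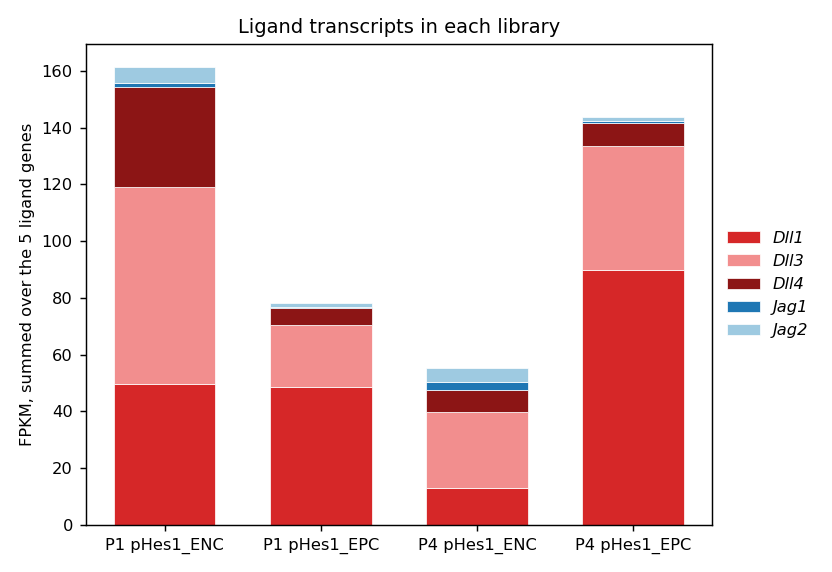
Stacked FPKM of the 5 ligand genes (y axis, linear, from 0) in the 4 libraries (x axis), with 1 library per group and no error bars. The sum is 161 FPKM in P1 ENC and 55.3 in P4 ENC against 78.1 in P1 EPC and 144 in P4 EPC, and Dll1 is the largest share in both EPC libraries.

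Mib1, which ubiquitinates Delta and Jagged ligands (chr18:10725623-10812215, plus strand, 21 exons), was at 19.9 FPKM (18.2 to 20.5) in P1 ENC, 12.9 (11.7 to 13.7) in P1 EPC, 21.0 (19.2 to 21.7) in P4 ENC and 4.70 (4.10 to 5.23) in P4 EPC. The ENC libraries overlapped each other, and both EPC libraries lay below them, P4 EPC lowest. ENC was 1.54 times higher at P1 (1.33 to 1.76) and 4.48 times higher at P4 (3.67 to 5.29), with differences of -0.59 and -1.95. Within EPC Mib1 was 2.75 times lower at P4 than at P1 (2.23 to 3.34). The P4 difference minus the P1 difference was -1.36, where 2.51% of expressed genes were below -1. Mib1 and Dll1 therefore differed in opposite directions at P4, with 0.621 times as much Dll1 as Mib1 in P4 ENC and 19.1 times as much in P4 EPC, beside 2.49 and 3.77 times in ENC and EPC at P1.

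Numb (chr12:85136389-85183293, minus strand, 11 exons) was at 12.2 FPKM (11.1 to 13.4) in P1 ENC, 12.8 (11.7 to 14.0) in P1 EPC, 9.50 (8.49 to 10.5) in P4 ENC and 9.19 (8.18 to 10.2) in P4 EPC. That line covers part of the GENCODE gene, which spans chr12:85134984-85262884 and has 8 coding transcripts. RefSeq starts of Numb also lie 34469 and 79591 bases upstream of the start of the line. What this does to the level was not tested. The fractions overlapped at each age. The ratio of EPC to ENC was 1.05 at P1 (0.873 to 1.26) and 0.967 at P4 (0.779 to 1.20), ranges that hold values on either side of equality, and the P1 difference of 0.07 became -0.02 when the libraries were rescaled to the same total. Both fractions were lower at P4, at 0.777 (0.636 to 0.944) and 0.716 (0.584 to 0.874) of the P1 level.

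Numbl, its homolog that is mainly neural (chr7:28043780-28067169, plus strand, 10 exons), was at 26.3 FPKM (23.4 to 26.4) in P1 ENC, 5.23 (4.42 to 5.75) in P1 EPC, 32.5 (29.0 to 32.8) in P4 ENC and 17.7 (15.6 to 18.3) in P4 EPC. No intervals overlapped, and P1 EPC was lowest. ENC was 5.02 times higher at P1 (4.07 to 5.98), with a difference of -2.13. At P4 EPC was at 0.543 of the ENC level (0.475 to 0.629), with a difference of -0.84 that passed -1 when the libraries were rescaled to the same total (-1.12) or by the median of ratios (-1.01). EPC was 3.38 times higher at P4 than at P1 (2.71 to 4.13), so the homologs did not change alike. Numbl was 2.15, 0.407, 3.42 and 1.92 times the level of Numb in P1 ENC, P1 EPC, P4 ENC and P4 EPC. Numbl and Dll3 lie on the same chromosome, 1011404 bases apart.

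FPKM is per length, so levels can be ordered within a library. In P1 ENC the order from the highest was Dll3, Dll1, Dll4, Numbl, Mib1, Numb, Jag2 and Jag1, with no neighbors overlapping. In P1 EPC it was Dll1, Dll3, Mib1, Numb, Dll4, Numbl, Jag2 and Jag1, where Mib1 and Numb overlapped, as did Dll4 and Numbl. In P4 ENC Numbl led, then Dll3, Mib1, Dll1, Numb, Dll4, Jag2 and Jag1, with no overlap. In P4 EPC Dll1 led, then Dll3, Numbl, Numb, Dll4, Mib1, Jag2 and Jag1, and Numb and Dll4 overlapped. Jag2 and Jag1 were last in every library, while Dll1 ranged from the first place in both EPC libraries to the fourth in P4 ENC, and Mib1 took the third place in P4 ENC and the sixth in P4 EPC.

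Other genes of ligand ubiquitination and endocytosis were set beside Mib1 (25 genes, 23 of them expressed). At P1 1 was called higher and 4 lower in EPC, with a median of -0.31, and at P4 2 were higher and 5 lower, with a median of -0.36. The shares of all expressed genes were 10.7% higher and 11.3% lower at P1, and 16.9% and 9.41% at P4. Mib2, the paralog of Mib1, was at 16.3, 10.6, 17.8 and 11.0 FPKM in P1 ENC, P1 EPC, P4 ENC and P4 EPC, with differences of -0.58 and -0.65, and so was lower in EPC by a like amount at both ages. Neurl1a, a Neuralized ligase, was at 6.47, 2.00, 10.2 and 3.16 FPKM (-1.32 and -1.43). Its paralog Neurl1b went the other way, at 1.50, 4.16, 0.133 and 2.12 FPKM (1.05 and 1.46). Neurl2 was at 2.51, 0.857, 2.20 and 1.35 FPKM (-0.92 and -0.45), and Neurl3 was at most 0.168 FPKM. Dnm1 and Dnm3, the neuronal dynamins that cut endocytic vesicles from the membrane, were lower in EPC, Dnm1 at 16.1, 1.22, 26.3 and 4.04 FPKM (-2.94 and -2.44) and Dnm3 at 7.84, 0.777, 7.50 and 1.34 FPKM (-2.32 and -1.86). Eps15, an endocytic adaptor, was at 8.65, 15.1, 6.33 and 27.1 FPKM (0.74 and 1.94).

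Non-canonical ligands (7 genes, 4 expressed) had 1 gene called higher and 1 lower at P1 (median 0.48), and 2 higher and 0 lower at P4 (median 1.77). These counts stand beside the same shares of all expressed genes, 10.7% and 11.3% at P1 and 16.9% and 9.41% at P4. Dner, a transmembrane ligand of neurons and their precursors, was at 16.0, 5.18, 6.26 and 12.5 FPKM, with differences of -1.46 and 0.89. Like Dll3, it was higher in ENC at P1 and higher in EPC at P4. Cntn6, a contactin, was at 1.81, 8.46, 0.291 and 8.32 FPKM (1.75 and 2.85), and Mfap2, a microfibril protein, was at 36.4, 73.8, 27.8 and 169 FPKM (1.00, just under the threshold, and 2.56), both higher in EPC.

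Genes of the receiving side were set beside the ligands, against the same shares of all expressed genes as above, 10.7% higher and 11.3% lower at P1 and 16.9% and 9.41% at P4. Of 8 expressed receptors and glycosyltransferases 3 were called higher and 0 lower at P1 (median 0.74), and 5 and 0 at P4 (median 1.27). Mfng and Rfng, glycosyltransferases like Lfng, were at -0.82 and -0.47 at P1. Notch2 differed by 1.71 and 2.16 and Notch3 by 1.98 and 1.59. Lfng, a glycosyltransferase that alters how receptors respond to Delta and Jagged ligands, was at 17.0, 86.8, 3.15 and 80.8 FPKM (2.28 and 4.30). The 12 genes of receptor cleavage and the nuclear complex had 0 calls at P1 (median 0.05, with Psen2, Rbpj and Ncstn at -0.50, -0.42 and -0.28) and 1 at P4 (median 0.33), that of Maml2, a coactivator (0.47 and 1.07), beside the protease gene Adam17 (0.68 and 0.77) and the gamma-secretase subunit gene Aph1b (0.12 and 0.85). Mfng, Rfng, Psen2, Rbpj and Ncstn were named after their values were seen, as genes on the other side of 0 at P1.

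Of the 10 targets and feedback genes, 6 were called higher in EPC at P1 and 7 at P4, and 0 were called lower (medians 2.09 and 3.29). These counts and medians include Hes1 and were not taken without it. Of all expressed genes, 10.7% were called higher and 11.3% lower at P1, and 16.9% and 9.41% at P4. Hes1, the gene whose promoter drives the sorted EGFP, differed by 2.59 and 4.37, Hes5 by 2.11 and 4.23, and Nrarp, a feedback inhibitor, by 2.25 and 3.75. Hes1 was used by the sort, so its direction describes the gate.

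Neurogenic progenitor genes, which Delta ligands accompany in cells entering neurogenesis, had 0 of 14 called higher and 10 lower in EPC at P1 (median -2.05), and 4 higher and 4 lower at P4 (median -0.36). Among all expressed genes 10.7% were called higher and 11.3% lower at P1, and 16.9% and 9.41% at P4. The P4 difference minus the P1 difference was above 1 in 13 of 14, the exception being Insm1 (0.02), beside 12.0% of all expressed genes. Such a shift was not particular to this list. It was above 1 in 11 of 11 expressed Müller glia markers, 7 of 10 targets and feedback genes and 8 of 12 retinal progenitor markers. For rod markers it was 3 of 10, and for S phase markers 1 of 12. Neurod4, Neurod1 and Atoh7, transcription factor genes of differentiating retinal neurons, were lower in EPC, by differences of -4.94, -4.53 and -4.11 in the P1 libraries that became -1.94, -2.31 and -1.53 in those of P4. Neurog2 and Olig2 were picked after their values were seen, as regulators of neurogenic progenitors. Neurog2 was at 74.3, 19.3, 13.2 and 66.7 FPKM (-1.89 and 2.25) and Olig2 at 27.6, 5.17, 5.50 and 20.9 FPKM (-2.21 and 1.75), in the same directions as Dll3.

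**Figure D4:**
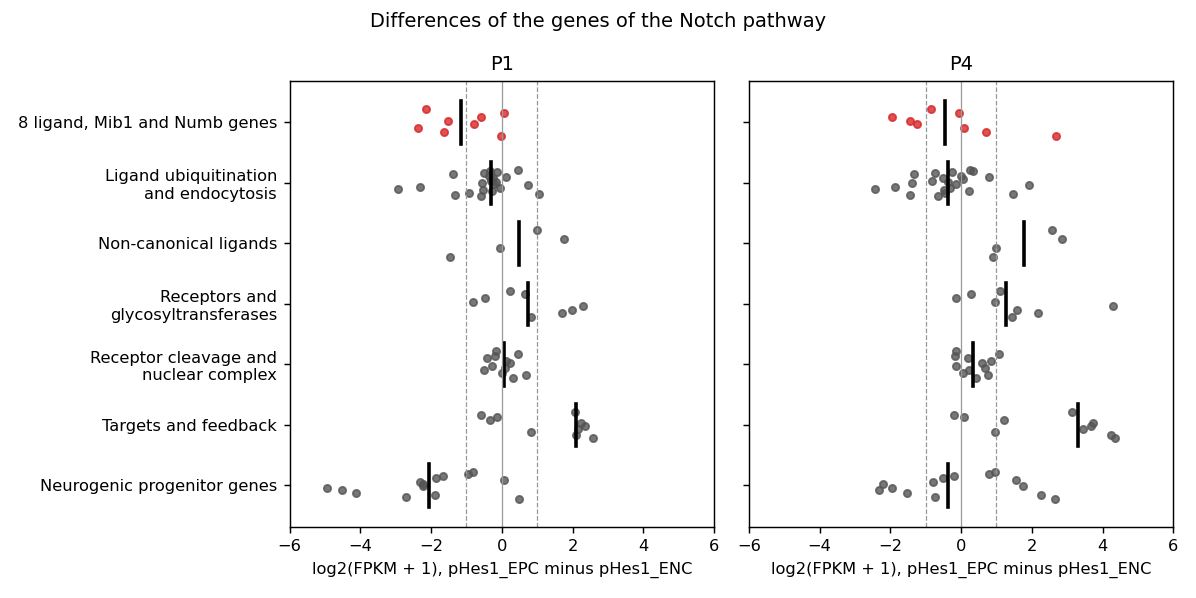
Difference in log2(FPKM + 1), EPC minus ENC (x axis), at P1 (left) and P4 (right) for the expressed genes of each list (y axis), with 1 point per gene, a black bar at the median, dashed lines at 1 and -1, and points spread vertically only to be visible. The median of the 8 genes is -1.15 and -0.44, while that of targets and feedback is 2.09 and 3.29 and that of neurogenic progenitor genes -2.05 and -0.36. Targets and feedback include Hes1, whose promoter drives the sorted EGFP.

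The members were also compared by the shape of their levels over the 4 libraries, as the root mean square difference of log2(FPKM + 1) after the mean of each gene was removed. With 4 points such likeness is a description only. The pseudocount of 1 flattens the low Jagged genes, so the distances were also taken on log2 FPKM without it, an alternative chosen after the data were seen. Jag2 and Mib1 were 0.43 apart with the pseudocount and 0.55 without, Dll3 and Dll4 0.46 and 0.50, and Jag1 and Numbl 0.51 and 0.49, so the nearest pair depended on it. The farthest pair was Dll1 and Mib1 with the pseudocount (1.65) and Dll1 and Jag1 without (2.15). Over 9292 candidate genes the nearest to Dll1 were Slc6a11 (0.08), Sh3bgrl (0.08) and Fbxw7 (0.18), to Dll3 Tubb2a (0.07), Mtss1 (0.08) and Cadm4 (0.08), and to Dll4 Gng3 (0.07), Atcay (0.08) and Tubb4 (0.08). All 3 were also the nearest without the pseudocount, for each of Dll1, Dll3 and Dll4. For Jag1, Unc13b (0.03), Crtc3 (0.04) and Elmod2 (0.05) were nearest only with the pseudocount, and without it they were 0.68, 0.64 and 0.67 away and Impdh1 was nearest (0.07). For Jag2 the nearest were Efs (0.05), Lrrc16b (0.09) and 2410066E13Rik (0.09), of which 0 of 3 stayed among the nearest 3 without it. Lmbrd2 (0.09), Ptpn4 (0.13) and Usp49 (0.19) were nearest to Mib1, also without the pseudocount. Psip1 (0.02), Sos1 (0.03) and Gm7120 (0.03) were nearest to Numb, whose profile was nearly flat, and Kdm5b (0.11), Smpdl3a (0.11) and Lbh (0.12) to Numbl, with 2 of 3 and 1 of 3 kept without the pseudocount.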

How the data were processed

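Retinal cells of pHes1-EGFP mice were sorted by EGFP and their RNA was sequenced from random-primed cDNA without strand information. Per the paper's methods and the submitters' processing notes, the authors made reads with bcl2fastq 1.8.4, aligned them to NCBI37/mm9 with TopHat2 2.0.8b, and computed FPKM with Cufflinks 2.1.1. The deposited FPKM tables hold 1 library each, with an interval and a status per gene line. The gene annotation given to Cufflinks is not given in the sources used here. Reads of overlapping genes, on either strand, cannot be told apart.

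From 23021 lines with 22558 symbols, 793 lines of small RNAs were left out. For the 234 symbols with several lines only that of the highest FPKM was used, leaving 21831 genes. Differences were computed with a pseudocount of 1 and called above 1 or below -1, without tests. Expressed genes had a mean FPKM of at least 1. The text names the 8 genes, and from each pathway list the 3 genes with the largest difference at either age, plus Mib2 and the Neurl genes. It also names the 3 genes nearest in profile to each member, with a mean FPKM of at least 5 and status OK, and markers whose list moves with a member. The 8 genes and the lists were chosen with earlier results of these data known. Alternatives were other pseudocounts, scalings, filters and the interval bounds. Calculations used Python 3.11.15, numpy 2.4.6, pandas 2.3.3 and matplotlib 3.10.9. The difference and the call of higher genes were tested on simulated data. These held no genes of low FPKM, none lower in EPC and none with a change near the threshold. RefSeq promoter windows were found for 7 of the 8 genes.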

Additional observations from a re-analysis of the deposited data

Results flagged for a closer look

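Dll3 went in opposite directions at the 2 ages, with the EPC library below the ENC library at P1 (-1.64) and above it at P4 (0.69). The P4 difference minus the P1 difference was 2.34 on the log2(FPKM + 1) scale. With 1 library per group this change of direction was not tested.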

How the results depend on the processing

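Each of the 16 member differences was recomputed under 7 alternatives. Of 112 values, 92 lay within the half-width of the range that the intervals allow from the value given above, and 20 lay farther away. Among all 112, 5 crossed the threshold and 4 changed sign, 3 of Dll4 at P4 and 1 of Numb at P1, neither past the threshold as deposited. Summing the lines of a symbol could not change any of the 8 genes, as each had 1 line. The ratio nearest to equality is a bound of the intervals themselves and not a separate processing. With the libraries rescaled to the same total, the P4 differences were 2.40 for Dll1, 0.41 for Dll3, -0.17 for Dll4, -2.19 for Mib1 and -1.12 for Numbl. Scaling by the median of ratios gave 2.51 for Dll1 at P4, and quantile normalization gave 2.37 for Dll1 and -1.50 for Jag1 at P4. A pseudocount of 0.1 gave -1.87 and -1.94 for Jag1 and -1.98 and -1.99 for Jag2 at P1 and P4. Without a pseudocount Dll4 at P1 was at -2.54, Jag1 at -2.25 and -2.08 and Jag2 at -2.06 and -2.08. The ratio nearest to equality that the intervals allow was, on the log2 scale, 0.51 for Dll3 at P4 and -1.60 and -1.64 for Jag1. The crossings were those of Jag1 at P1, without the pseudocount of 1, and of Numbl at P4, under 2 scalings. The counts of genes called higher and lower at P1, 1331 and 1483, became 2057 and 2471 with a pseudocount of 0.1 and 3008 and 3817 without one. At P4 the counts of 2150 and 1184 became 3212 and 1963 with a pseudocount of 0.1, 4390 and 3182 without one, and 1535 and 1668 with the libraries rescaled to the same total. No paired analysis was possible because the labels give no replicate numbers and each group has 1 library, and the fractions were compared within each age. No replicate could be left out. The changes from P1 to P4 within a fraction were not recomputed under the alternatives. Library depth is unknown, and the intervals do not cover the variation between animals or sorts.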
